A study of Mus musculus with 2 samples.

Results

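The 49 genes described here encode molecular chaperones and folding enzymes: the HSP70 and HSP110 proteins with their co-chaperones, HSP90 with its partners, 2 small heat shock proteins, the heat shock factors Hsf1 and Hsf2, the CCT chaperonin, prefoldin, and the prolyl isomerases of the cyclophilin and FKBP families. They were taken by gene symbol from a table of 22383 genes, by a rule that uses no measured value, although earlier results of these data were known when the symbols were listed. Each symbol was found once, and all 49 genes passed the minimum of 20 counts in either library. Most of the products are cytosolic. Hspa9, Hspd1, Hspe1, Trap1 and Ppif encode mitochondrial proteins, and Ppib and Hspa13 encode proteins of the secretory pathway, so the set is wider than the cytosol.

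The values come from 2 RNA sequencing libraries of iHFSC2, an immortalized mouse hair follicle stem cell line. The shcircSmad5 library is from a stable derivative infected with a lentivirus, pwslv-shcircSmad5, whose short hairpin targets circSmad5, a circular RNA of the Smad5 gene. The empty vector library is from a stable derivative infected with the lentivirus without a hairpin. Both derivatives were selected with puromycin from day 4 after infection and were established at day 15. There was 1 library per group and no line with a control hairpin, so no test, standard error or p-value could be had. Effects of losing circSmad5, of carrying any hairpin and of deriving each line on its own cannot be told apart. In bulk RNA, fewer cells of a type and less RNA per cell cannot be told apart either.

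Chaperones bind proteins that are not yet folded and keep them from sticking together. HSP70 works through rounds of ATP binding and hydrolysis, in which J proteins speed the hydrolysis and nucleotide exchange factors release the ADP. HSP70 hands clients such as kinases and steroid receptors to HSP90. Prefoldin passes new actin and tubulin chains to the ring-shaped CCT chaperonin, while cyclophilins and FKBPs turn the peptide bonds before proline. Many of these genes share an inducible promoter, in which the heat shock factor Hsf1 binds repeated nGAAn units under protein stress. In skin, the small heat shock protein Hspb1 is abundant in keratinocytes.

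Ppia and Hspa8 rose in the shcircSmad5 library, Hspa4l fell, and the other 46 genes did not reach a 2-fold difference. Ppia encodes cyclophilin A, the cytosolic receptor of cyclosporin, and was 11.9-fold higher in shcircSmad5 than in empty vector cells. Hspa8 encodes the constitutive HSP70 protein Hsc70 and was 5.57-fold higher. Hspa4l encodes an HSP110 protein that exchanges the nucleotide of HSP70 and was 2.21-fold lower. A gene counts as higher or lower when it reached 20 counts in either library, differed by at least 2-fold after TMM scaling, and had an exact Clopper-Pearson 95% interval of its ratio that excludes 1. That interval covers counting error only.

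**Figure D1:**
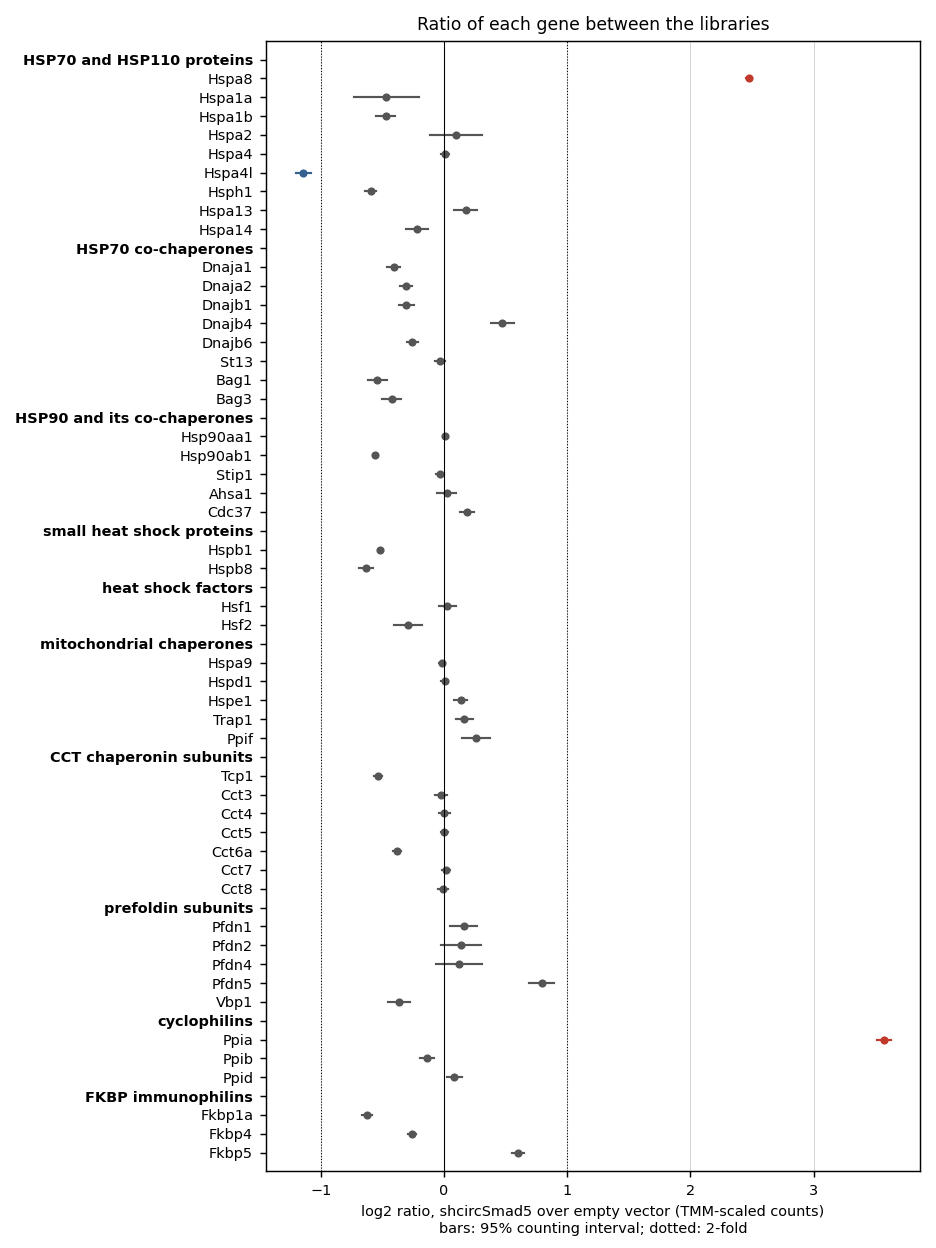
Log2 ratio of each gene (x axis), shcircSmad5 over empty vector, on TMM-scaled counts, with genes down the page by role, bars for the 95% counting interval and dotted lines at 2-fold. Ppia (3.57) and Hspa8 (2.48) lie right of the upper line, Hspa4l (-1.14) lies left of the lower one, and the other 46 genes lie between -0.63 and 0.79.

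The 2 higher genes are 4.08% of the set, against 8.43% of all 13596 genes with at least 20 counts. The 1 lower gene is 2.04% of the set, against 6.24% of all genes. Of the 49 genes, 45 reached 1000 counts in either library, and the 3 genes that passed were among them. Of these 45, 4.44% were higher, against 0.909% of the 6822 protein-coding genes at that level, and 2.22% were lower, against 2.8%. The share of lower genes is thus near the background. Ranked by ratio from the highest, Ppia was number 2 and Hspa8 number 3 of the 6822, and Hspa4l was number 138 from the lowest.

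The rest of the set lay close to equal levels. The median log2 ratio of the 49 genes was -0.02, as was that of all 13596 genes, and 23 ratios were above 1 and 26 below. Without Ppia and Hspa8 it was again -0.02, over 47 genes. With each chromosome set to its median, the median log2 ratio was -0.09 for the 49 genes and 0 for all genes. The ratio lay within 1.5-fold for 41 of 49 genes, which is 83.7%, against 71.0% of all genes and 86.6% of the protein-coding genes with at least 1000 counts. The counting interval spanned 1 for 15 genes, lay above 1 for 12 and lay below 1 for 22. These intervals are narrow because of the counts, 209 to 100831 per gene in the shcircSmad5 library and 283 to 92287 in the empty vector library, and they say nothing of the spread between cultures. The summed level of the set was 14948 CPM (counts scaled to a common total) in shcircSmad5 cells and 13902 CPM in empty vector cells. Without Ppia and Hspa8 it was 11449 CPM in shcircSmad5 cells and 13362 CPM in empty vector cells.

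**Figure D2:**
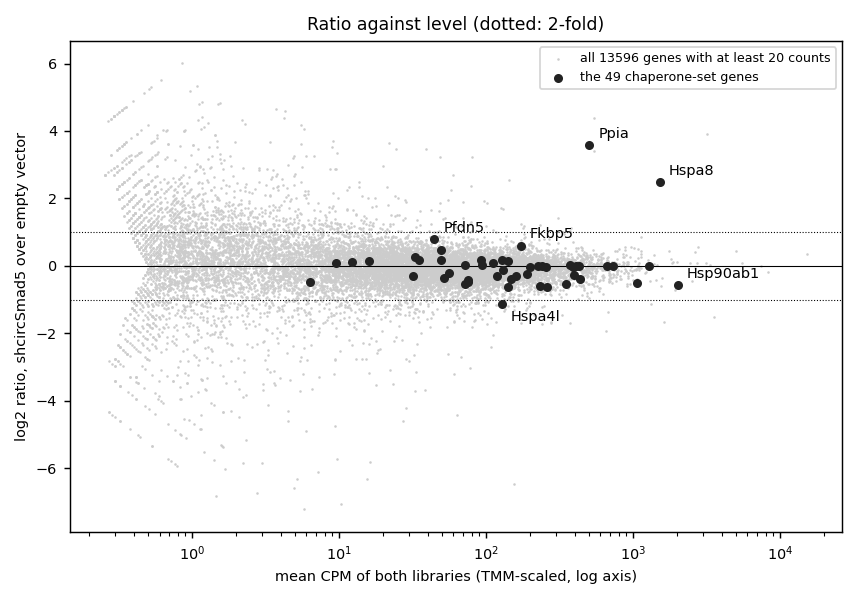
Log2 ratio (y axis), shcircSmad5 over empty vector, against the mean CPM of both libraries (log x axis), with the 49 genes in black over all 13596 genes with at least 20 counts in grey and dotted lines at 2-fold. Ppia and Hspa8 stand above most genes of their level, and most of the set lies along 0.

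Promoters are shown for 6 genes that span the results: Ppia, which rose, Hspa4l, which fell, and 4 stress-inducible genes whose windows hold a heat shock unit pair. Each window is RefSeq sequence of GRCm38.p6, 250 bases before to 50 bases after a gene's start, read 5′ to 3′ on the gene's own strand. Capitals mark the letters GAANNTTC or TTCNNGAA, 2 inverted nGAAn units that touch. Each of the 2 motifs is its own reverse complement, so both strands were covered, and matches that overlap were joined into 1 run of capitals. The Ppia window is chr11:6415617-6415916 on the plus strand, and the Hspa4l window is chr3:40745363-40745662 on the plus strand. The Hsph1 window is chr5:149636287-149636586 on the minus strand, and the Hspa1b window is chr17:34959189-34959488 on the minus strand. The Hspb1 window is chr5:135887669-135887968 and the Hspe1 window chr1:55087898-55088197, both on the plus strand.
Ppia: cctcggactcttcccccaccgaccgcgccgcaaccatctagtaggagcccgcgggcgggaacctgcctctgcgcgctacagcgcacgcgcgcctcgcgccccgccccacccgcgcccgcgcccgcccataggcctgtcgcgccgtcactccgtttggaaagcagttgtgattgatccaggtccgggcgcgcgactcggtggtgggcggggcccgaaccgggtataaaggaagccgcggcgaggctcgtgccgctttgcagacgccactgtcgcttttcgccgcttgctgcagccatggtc
Hspa4l: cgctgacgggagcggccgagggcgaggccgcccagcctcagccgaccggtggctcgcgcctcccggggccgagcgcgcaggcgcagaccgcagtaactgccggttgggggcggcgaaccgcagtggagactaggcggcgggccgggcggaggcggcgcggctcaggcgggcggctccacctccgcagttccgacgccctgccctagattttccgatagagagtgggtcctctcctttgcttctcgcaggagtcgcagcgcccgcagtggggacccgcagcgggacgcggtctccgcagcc
Hsph1: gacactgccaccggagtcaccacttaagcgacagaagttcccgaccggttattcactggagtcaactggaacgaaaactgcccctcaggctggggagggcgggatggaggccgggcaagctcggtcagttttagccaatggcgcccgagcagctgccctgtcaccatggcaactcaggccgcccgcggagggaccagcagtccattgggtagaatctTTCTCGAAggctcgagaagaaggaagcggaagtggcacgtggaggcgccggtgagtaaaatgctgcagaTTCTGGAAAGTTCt
Hspa1b: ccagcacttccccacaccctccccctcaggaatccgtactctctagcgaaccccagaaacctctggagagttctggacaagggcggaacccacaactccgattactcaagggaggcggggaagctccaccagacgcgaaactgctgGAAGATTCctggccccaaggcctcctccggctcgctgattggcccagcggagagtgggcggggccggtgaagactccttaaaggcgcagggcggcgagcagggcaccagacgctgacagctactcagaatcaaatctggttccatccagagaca
Hspb1: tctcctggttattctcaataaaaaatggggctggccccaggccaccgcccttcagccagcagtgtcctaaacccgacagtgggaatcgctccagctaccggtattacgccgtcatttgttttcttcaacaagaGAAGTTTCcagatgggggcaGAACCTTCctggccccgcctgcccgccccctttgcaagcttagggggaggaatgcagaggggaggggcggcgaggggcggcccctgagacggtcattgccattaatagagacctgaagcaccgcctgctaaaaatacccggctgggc
Hspe1: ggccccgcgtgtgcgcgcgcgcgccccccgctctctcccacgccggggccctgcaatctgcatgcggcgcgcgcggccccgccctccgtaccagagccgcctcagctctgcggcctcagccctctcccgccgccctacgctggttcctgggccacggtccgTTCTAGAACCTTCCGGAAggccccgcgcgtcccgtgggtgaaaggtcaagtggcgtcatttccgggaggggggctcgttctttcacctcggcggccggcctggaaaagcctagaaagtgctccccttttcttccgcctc

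The Ppia and Hspa4l windows hold 0 matches, the Hspa1b window 1, the Hspb1 window 2, and the Hsph1 and Hspe1 windows 3 each. RefSeq windows were used for 39 of the 49 genes, and none for the other 10, Hspa8 and both Hsp90 genes among them. Windows of the set on chromosome 18, where Hspa9 and Pfdn1 lie, were left out. The shares of all promoters were taken without that step. A match was found in 13 of the 39 windows, or 33.3%, against 15.1% of all 32851 promoters of the same length. Matches that make 3 units in a row were found in Hsph1, Hspe1 and Dnajb6, against 0.603% of all promoters. Of the 13 genes with a match, 10 had a ratio below 1, with a median log2 ratio of -0.41 and a range of -0.63 to 0.18. Of the 26 genes without one, 13 had a ratio below 1, with a median log2 ratio of -0.0012. Hspd1 counts among these 26, and its window shares 4 bases with that of its neighbour Hspe1, which holds 3 matches. The 10 genes with no window used, Hspa8 among them, are in neither group. Hspa1a, Hspa1b, Hsph1, Hspb1, Hspb8, Cct6a and Dnajb6, all with a match, lie on chromosome 17 or 5. The median log2 ratio of all measured genes was -0.38 on chromosome 17 and -0.13 on chromosome 5. The split was not set against these medians, and whether a match goes with a lower ratio was not tested. A match is a description of letters and was not tested as a site.

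**Figure D3:**
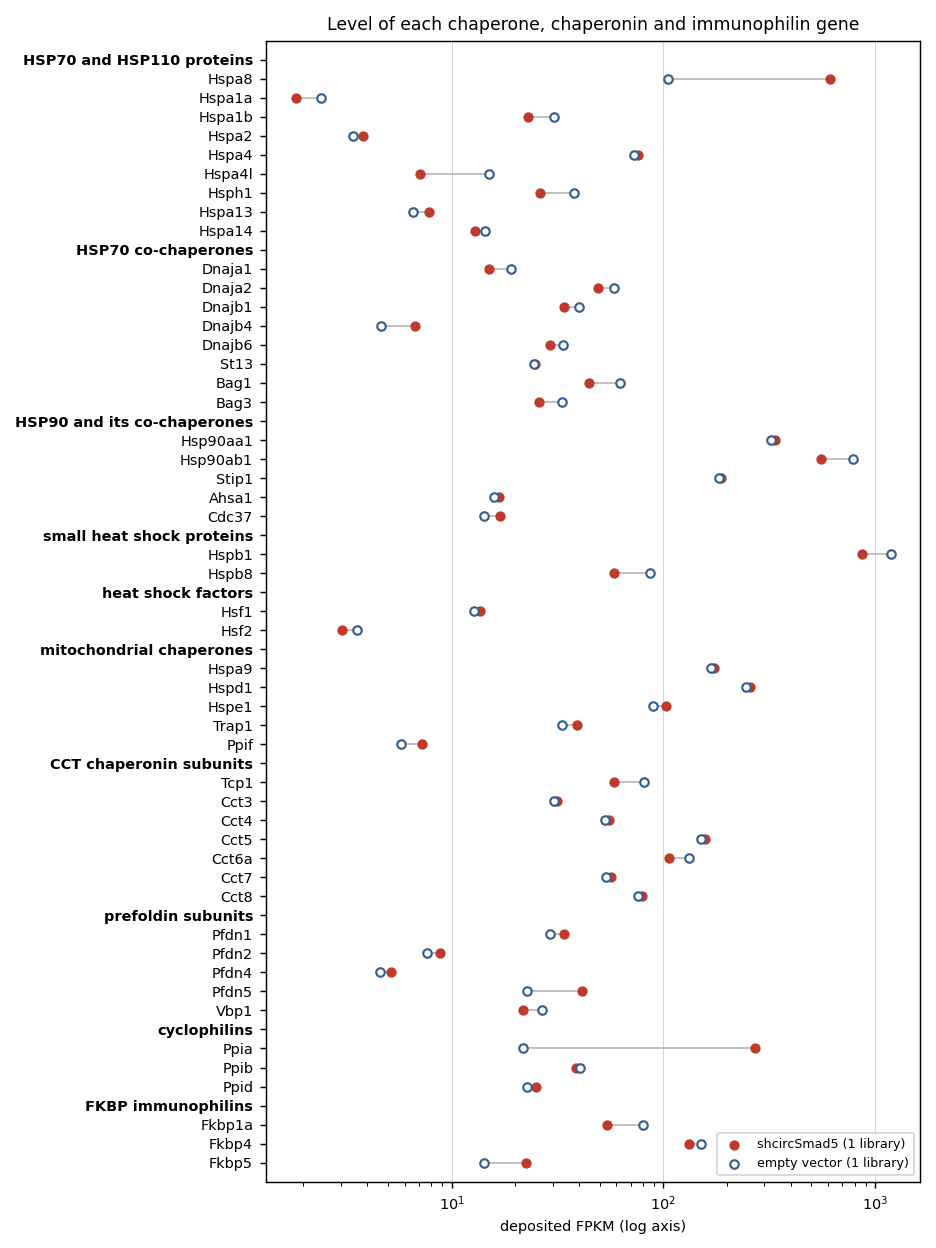
Deposited FPKM (log x axis) of each gene, with filled points for the shcircSmad5 library and open points for the empty vector library, joined by a grey line, and genes down the page by role. The longest lines are those of Ppia (271 and 21.8 FPKM) and Hspa8 (611 and 105 FPKM), and Hspb1 is the highest gene in both libraries.

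Among the HSP70 and HSP110 proteins, Hspa8 stands apart. Hspa8 (ENSMUSG00000015656, GRCm38 chromosome 9, 40800984 to 40810087, plus strand) had 100831 counts and 611 FPKM (counts per length and depth) in the shcircSmad5 library, against 17731 counts and 105 FPKM in the empty vector library. Its log2 ratio was 2.48 (95% counting interval 2.45 to 2.50). It took 17.2% of the summed CPM of the set in shcircSmad5 cells and 3.32% in empty vector cells, and ranked 1 of the 49 by CPM in shcircSmad5 cells and 7 in empty vector cells. Per length it held 26.7 times the FPKM of the inducible Hspa1b in shcircSmad5 cells and 3.45 times in empty vector cells.

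The inducible pair Hspa1a and Hspa1b did not follow Hspa8. Both encode the HSP70 protein that cells make under stress, and their coding sequences are near-identical, so reads can be split between them. Hspa1b (GRCm38 chromosome 17, 34956436 to 34959238, minus strand) had 2461 counts and 22.9 FPKM in the shcircSmad5 library and 3346 counts and 30.4 FPKM in the empty vector library, a log2 ratio of -0.47 (-0.55 to -0.40), or -0.09 against the median of its chromosome. Hspa1a had 209 counts in shcircSmad5 cells and 283 in empty vector cells, with the same log2 ratio of -0.47. Both were measured below Hspa8 per length in either library.

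The 3 HSP110 genes, whose products release ADP from HSP70, differed among themselves. Hspa4l (ENSMUSG00000025757, GRCm38 chromosome 3, 40744495 to 40796103, plus strand) had 3128 counts and 7.09 FPKM in shcircSmad5 cells, against 6765 counts and 15.0 FPKM in empty vector cells. Its log2 ratio was -1.14 (-1.20 to -1.08), and on the log2(FPKM + 1) scale it was -0.98, short of 2-fold. Hspa4, its close paralog, had 16149 counts and 76.1 FPKM in shcircSmad5 cells and 15757 counts and 72.6 FPKM in empty vector cells, a log2 ratio of 0.01 (-0.03 to 0.04). Hspa4 thus held 10.7 times the FPKM of Hspa4l in the shcircSmad5 library and 4.85 times in the empty vector library. Hsph1, the stress-inducible member, had 7275 counts and 26.1 FPKM in shcircSmad5 cells and 10764 counts and 37.7 FPKM in empty vector cells, a log2 ratio of -0.60 (-0.64 to -0.55).

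The other 3 HSP70 genes had log2 ratios between -0.22 and 0.18. Hspa2, best known from the male germ line, had 388 counts in shcircSmad5 cells and 356 in empty vector cells. Its interval of -0.12 to 0.31 on the log2 scale spans 0. Hspa13, a microsomal HSP70, had a log2 ratio of 0.18 and Hspa14, which binds ribosomes, one of -0.22.

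The co-chaperones of HSP70 had 7 of 8 ratios below 1 and a median log2 ratio of -0.31, but none reached 2-fold. Of the 6822 protein-coding genes with at least 1000 counts, 3992 had a ratio below 1, with a median log2 ratio of -0.07. Against the medians of their chromosomes, the 7 co-chaperones had log2 ratios between -0.35 (Bag3) and -0.13 (Dnajb6). St13, or Hip, steadies the ADP form of HSP70 and had 9847 counts and 24.9 FPKM in shcircSmad5 cells and 9886 counts and 24.4 FPKM in empty vector cells. Dnajb6, a J protein that keeps polyglutamine proteins soluble, had 6820 counts and 29.3 FPKM in shcircSmad5 cells and 7982 counts and 33.5 FPKM in empty vector cells. Their log2 ratios were -0.04 and -0.26. The type A J proteins, which bring unfolded clients to HSP70, lay a little further down. Dnaja2 had 5607 counts and 49.1 FPKM in shcircSmad5 cells and 6804 counts and 58.3 FPKM in empty vector cells, a log2 ratio of -0.31 (-0.36 to -0.26). Dnaja1 had 5002 counts and 15.1 FPKM in shcircSmad5 cells and 6494 counts and 19.2 FPKM in empty vector cells, a log2 ratio of -0.41 (-0.46 to -0.35).

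The remaining co-chaperones are 2 exchange factors and 2 J proteins. Bag1 and Bag3 exchange the nucleotide of HSP70, and Bag3 also leads clients to autophagy together with Hspb8. Bag1 had a log2 ratio of -0.54 and Bag3 one of -0.42. Dnajb1, or Hsp40, had a log2 ratio of -0.31. Dnajb4 was the 1 co-chaperone above 1, with 2258 counts in shcircSmad5 cells and 1593 in empty vector cells and a log2 ratio of 0.47 (0.38 to 0.57).

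The HSP90 isoforms differed in ratio, and less so against the medians of their chromosomes. Hsp90ab1 (GRCm38 chromosome 17, 45567775 to 45573271, minus strand), the constitutive HSP90 beta, had 63742 counts and 554 FPKM in shcircSmad5 cells and 92287 counts and 784 FPKM in empty vector cells, a log2 ratio of -0.56 (-0.58 to -0.55), or -0.18 against the median of its chromosome. Hsp90aa1, the inducible HSP90 alpha, had 50753 counts and 336 FPKM in shcircSmad5 cells and 49500 counts and 321 FPKM in empty vector cells, a log2 ratio of 0.01 (-0.01 to 0.02). Against the median of its chromosome, Hsp90aa1 had a log2 ratio of -0.08. On the FPKM scale, not set against chromosome medians, the alpha form stood at 0.607 of the beta form in shcircSmad5 cells and at 0.409 in empty vector cells. The summed level of both was 2919 CPM in shcircSmad5 cells and 3691 CPM in empty vector cells.

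The HSP90 co-chaperones lay near equal levels. Stip1, or Hop, which joins HSP70 to HSP90, had 15160 counts and 187 FPKM in shcircSmad5 cells and 15188 counts and 184 FPKM in empty vector cells, a log2 ratio of -0.03. Cdc37, which recruits kinases, had 5325 counts and 16.9 FPKM in shcircSmad5 cells and 4593 counts and 14.3 FPKM in empty vector cells, a log2 ratio of 0.18 (0.13 to 0.24). Ahsa1, which speeds the ATPase of HSP90, had a log2 ratio of 0.02 (-0.06 to 0.10).

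Both small heat shock proteins were on the empty vector side. Hspb1 had the highest FPKM of the set in either library, 862 from 34109 counts in shcircSmad5 cells and 1183 from 47873 counts in empty vector cells. Its log2 ratio was -0.52 (-0.54 to -0.50). Hspb8, the partner of Bag3, had 4359 counts and 58.2 FPKM in shcircSmad5 cells and 6618 counts and 86.4 FPKM in empty vector cells, a log2 ratio of -0.63 (-0.69 to -0.58), the lowest of the 46 genes that did not pass.

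The factors that drive the stress genes showed little difference. Hsf1, the main heat shock factor, had 3706 counts and 13.6 FPKM in shcircSmad5 cells and 3563 counts and 12.8 FPKM in empty vector cells, and its log2 interval of -0.04 to 0.09 spans 0. Hsf2 had 1123 counts and 3.05 FPKM in shcircSmad5 cells and 1345 counts and 3.57 FPKM in empty vector cells, a log2 ratio of -0.29. RNA levels of Hsf1 do not measure its activity. A list of 22 genes, drawn up as stress-inducible and bound by HSF1, also holds the constitutive Hspa8. Of these genes 20 come from the set, so the list largely repeats its values. Among the 22, 1 was higher (Hspa8) and 1 was lower (Hspa4l). In this list 14 had a ratio below 1. Its median log2 ratio was -0.28, or -0.17 with each chromosome set to its median. Of all 13596 genes with at least 20 counts, 8.43% were higher, 6.24% were lower and 6973 had a ratio below 1. Of the 6822 protein-coding genes with at least 1000 counts, 3992 had a ratio below 1.

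The mitochondrial chaperones were nearly level, with 4 of 5 ratios above 1 and a median log2 ratio of 0.14. Hspa9, the mitochondrial HSP70 or mortalin that pulls proteins through the inner membrane, had 28721 counts and 174 FPKM in shcircSmad5 cells and 28427 counts and 168 FPKM in empty vector cells. Hspd1 encodes the HSP60 folding chamber and Hspe1 its HSP10 lid, and the genes lie head to head on chromosome 1. Hspd1 had 26128 counts and 258 FPKM in shcircSmad5 cells and 25516 counts and 246 FPKM in empty vector cells, a log2 ratio of 0.00 (-0.02 to 0.03). Hspe1 had 5812 counts and 103 FPKM in shcircSmad5 cells and 5179 counts and 89.5 FPKM in empty vector cells, a log2 ratio of 0.14 (0.08 to 0.19). The ratio of Hspd1 to Hspe1 was 2.51 in shcircSmad5 cells and 2.75 in empty vector cells, on the FPKM scale. Trap1, the mitochondrial HSP90, had 3843 counts and 38.9 FPKM in shcircSmad5 cells and 3357 counts and 33.2 FPKM in empty vector cells. Ppif, or cyclophilin D, a regulator of the permeability transition pore, had a log2 ratio of 0.26.

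Of the 7 CCT subunits in the set, 5 had log2 ratios between -0.02 and 0.02. CCT is a double ring that folds actin and tubulin, and each ring holds every subunit. Cct5 had 16779 counts and 158 FPKM in shcircSmad5 cells and 16393 counts and 151 FPKM in empty vector cells, a log2 ratio of 0.00 (-0.03 to 0.03). Cct7 had 14745 counts and 56.7 FPKM in shcircSmad5 cells and 14278 counts and 53.7 FPKM in empty vector cells, a log2 ratio of 0.02 (-0.02 to 0.05). Cct3, Cct4 and Cct8 had log2 ratios of -0.02, 0.00 and -0.01, each with an interval that spans 0. The other 2 subunits were lower in shcircSmad5 cells, short of 2-fold. Tcp1 (GRCm38 chromosome 17, 12915701 to 12925067, plus strand), the alpha subunit, had 11261 counts and 58.3 FPKM in shcircSmad5 cells and 15977 counts and 80.9 FPKM in empty vector cells, a log2 ratio of -0.53 (-0.57 to -0.50), or -0.15 against the median of its chromosome. Cct6a, the zeta subunit, had 14774 counts and 106 FPKM in shcircSmad5 cells and 18844 counts and 133 FPKM in empty vector cells, a log2 ratio of -0.38 (-0.41 to -0.35). Against the median of its chromosome, Cct6a had a log2 ratio of -0.25. On that scale Cct3, Cct4, Cct5, Cct7 and Cct8 had -0.16, -0.09, -0.19, -0.13 and -0.11, a range that holds Tcp1. Opposite-strand exons lie over 14.2% of the Tcp1 exon bases and 12.5% of those of Cct6a, against 6.22% or less for the other 5. The part of this overlap in the counts was not tested.

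The beta subunit Cct2, on chromosome 10 and outside the set of 49, differed from the 7 others in level and ratio. It had 72130 counts and 735 FPKM in shcircSmad5 cells and 204017 counts and 2032 FPKM in empty vector cells, and was 2.89-fold lower (2.86 to 2.91). That is 4.65 times the FPKM of the highest of the 7 others in shcircSmad5 cells and 13.5 times in empty vector cells. Whether these reads come from whole Cct2 transcripts was not tested.

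**Figure D4:**
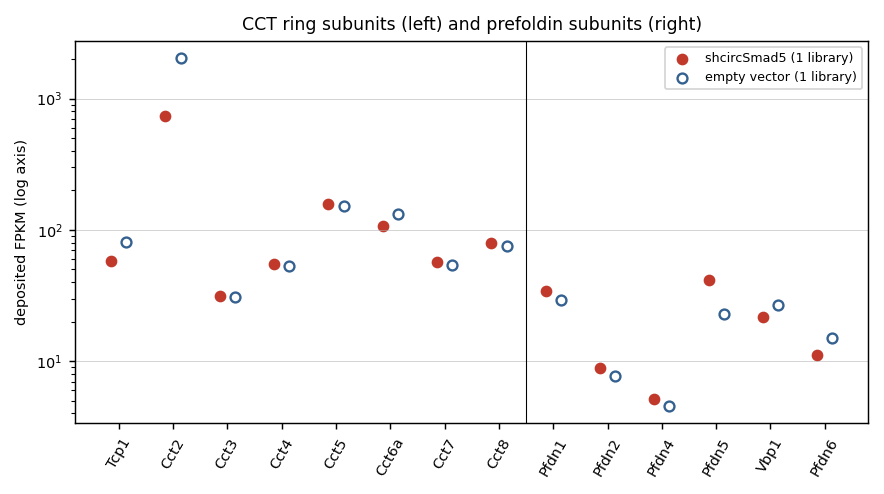
Deposited FPKM (log y axis) of the CCT subunits on the left and the prefoldin subunits on the right, with filled points for the shcircSmad5 library and open points for the empty vector library, and with Cct2 and Pfdn6, outside the set, added. Cct2 lies above the other subunits in both libraries, Tcp1 and Cct6a are lower in shcircSmad5 cells, and Pfdn5 is higher in them.

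Prefoldin, the jellyfish-shaped complex that hands chains to CCT, had 4 of 5 ratios above 1. Pfdn5 (GRCm38 chromosome 15, 102326116 to 102331873, plus strand), also known as a binder of Myc, had 2207 counts and 41.2 FPKM in shcircSmad5 cells and 1247 counts and 22.8 FPKM in empty vector cells. Its log2 ratio of 0.79 (0.69 to 0.89) was the highest of the 46 genes that did not pass, and 11.8% of its exon bases lie under exons of Myg1 on the same strand. Against the medians of their chromosomes, Pfdn5 had a log2 ratio of 0.60, below the 0.98 of Fkbp5. Vbp1, the prefoldin subunit on the X chromosome, had 1781 counts and 21.8 FPKM in shcircSmad5 cells and 2243 counts and 26.8 FPKM in empty vector cells, a log2 ratio of -0.36, or 0.07 against the median of its chromosome. Pfdn1 had 1452 counts and 34.1 FPKM in shcircSmad5 cells and 1272 counts and 29.2 FPKM in empty vector cells, a log2 ratio of 0.16. Pfdn2 had 654 counts and 8.80 FPKM in shcircSmad5 cells and 582 counts and 7.65 FPKM in empty vector cells, and its interval of -0.03 to 0.30 spans 0, as does that of Pfdn4. Pfdn6, outside the set, had 506 counts in shcircSmad5 cells and 706 in empty vector cells.

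Ppia differed most of the 49 genes. Ppia (ENSMUSG00000071866, GRCm38 chromosome 11, 6415443 to 6419817, plus strand) had 36432 counts and 271 FPKM in the shcircSmad5 library, against 3004 counts and 21.8 FPKM in the empty vector library. Its log2 ratio was 3.57 (3.52 to 3.62). Ppia took 6.21% of the summed CPM of the set in shcircSmad5 cells and 0.562% in empty vector cells, and ranked 4 of the 49 by CPM in shcircSmad5 cells and 36 in empty vector cells.

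No other prolyl isomerase of the set passed. Ppib, cyclophilin B, which helps to fold collagen in the endoplasmic reticulum, had 4896 counts and 38.6 FPKM in shcircSmad5 cells and 5264 counts and 40.6 FPKM in empty vector cells, a log2 ratio of -0.13. Ppid, cyclophilin 40, which rides on HSP90, had 4481 counts and 25.2 FPKM in shcircSmad5 cells and 4139 counts and 22.7 FPKM in empty vector cells, a log2 ratio of 0.08. The FPKM of Ppia was 7.01 times that of Ppib in shcircSmad5 cells and 0.538 of it in empty vector cells. Of 12 further cyclophilin genes measured, none passed, and their median log2 ratio was 0.07. The 3 with the most counts were Ranbp2 (0.11), a nuclear pore protein with a cyclophilin domain, Nktr (0.41) and Ppig (-0.14), in log2 ratios.

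The FKBPs went both ways. Fkbp1a, or FKBP12, the receptor of FK506 and rapamycin, had 7985 counts and 53.9 FPKM in shcircSmad5 cells and 12079 counts and 79.8 FPKM in empty vector cells, a log2 ratio of -0.63 (-0.67 to -0.59). Ppia stood at 5.02 times the FPKM of Fkbp1a in shcircSmad5 cells and at 0.273 of it in empty vector cells. Fkbp4, or FKBP52, which works with HSP90 on steroid receptors, had 14170 counts and 132 FPKM in shcircSmad5 cells and 16607 counts and 151 FPKM in empty vector cells, a log2 ratio of -0.26. Fkbp5, or FKBP51, which holds the glucocorticoid receptor back and is induced by it, had 8174 counts and 22.5 FPKM in shcircSmad5 cells and 5288 counts and 14.2 FPKM in empty vector cells, a log2 ratio of 0.60 (0.55 to 0.65), or 0.98 against the median of its chromosome. Of 10 further FKBP genes measured, with a median log2 ratio of -0.27, 1 was lower: Fkbp10, a collagen-folding isomerase, had 589 counts in shcircSmad5 cells and 1577 in empty vector cells, 2.73-fold lower (2.49 to 3.01).

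Ppia and Hspa8 have many processed pseudogenes, copies of their mRNA pasted elsewhere in the genome, and reads can be split or moved between near-identical copies. With at least 90% identity over 80% of the coding sequence, 27 pseudogene copies of Ppia and 9 of Hspa8 were found among the annotated transcripts, and no other gene of the 48 searched had more than 3. The table holds 9 of the Ppia copies, with 332 counts in the shcircSmad5 library and 314 in the empty vector library in all. It holds 4 of the Hspa8 copies, with 7943 counts in the shcircSmad5 library and 2501 in the empty vector library. Most of these fall on Gm15459, which is 99.7% identical to Hspa8 and had 7775 counts in shcircSmad5 cells and 2391 in empty vector cells.

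With the counts of its copies added, a step chosen after seeing the data, Ppia was 10.9-fold higher (10.5 to 11.3) and Hspa8 5.27-fold higher (5.19 to 5.35). The 7 other genes searched with at least 9 pseudogene copies, among them Gapdh with 133, had log2 ratios between -0.48 and 0.08. Their copies did not all follow them. The copies of Rps2 had 9013 counts in shcircSmad5 cells and 16574 in empty vector cells, with Rps2 itself at a log2 ratio of -0.04. Those of Gapdh had 7385 counts in shcircSmad5 cells and 6789 in empty vector cells, with Gapdh at 0.08. Counts of copies that the table lacks, and how reads with several matches were treated, were not analysed here, and the part of such reads in the ratios of Ppia and Hspa8 was not tested. Exons of Ppia, Hspa8 and Hspa4l have 0 bases under exons of the opposite strand, and 6.09% of the Hspa8 exon bases lie under small nucleolar RNA genes on its own strand.

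Several of the ratios lay near the median of their chromosome. The median log2 ratio of all measured genes was -0.38 on chromosome 17, -0.43 on the X chromosome and between -0.21 and 0.20 on the other autosomes. Hsp90ab1, Tcp1, Hspa1a and Hspa1b lie on chromosome 17, with log2 ratios between -0.18 and -0.09 against that median, and Fkbp5 lies there too. On chromosome 5, where the median was -0.13, the genes Hsph1, Hspb1, Hspb8, Cct6a and Dnajb6 had a median log2 ratio of -0.52. Against the medians of their own chromosomes, Ppia had a log2 ratio of 3.48, Hspa8 one of 2.36 and Hspa4l one of -1.28.

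**Figure D5:**
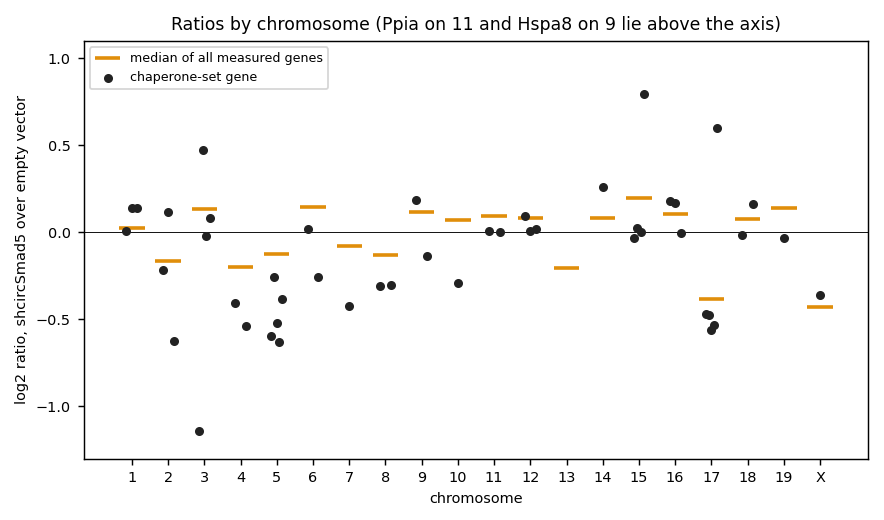
Log2 ratio (y axis), shcircSmad5 over empty vector, of each gene of the set (black points) by chromosome (x axis), with the median of all measured genes of the chromosome as an orange bar. On chromosome 17, 4 points lie near the bar at -0.38 and Fkbp5 lies above it, while the 5 points of chromosome 5 lie below the bar at -0.13, and Ppia and Hspa8 are beyond the axis.

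Counts in the neighbouring gene groups stand beside the 8.43% of all genes that were higher and the 6.24% that were lower, with a median log2 ratio of -0.02, and nothing particular to a group is read from them. Of 35 other J proteins, with a median log2 ratio of -0.06, none was higher and 1 was lower, Dnajc12, with 9 counts in shcircSmad5 cells and 21 in empty vector cells. Of 9 other HSP70 partners none passed, with a median log2 ratio of -0.14, and the 3 with the most counts were Bag6, Grpel1 and Grpel2, with log2 ratios of -0.55, -0.19 and 0.06. Of 19 other HSP90 co-chaperones none passed, with a median log2 ratio of -0.03, and Ptges3, or p23, Tomm70a and Fnip2 had log2 ratios of 0.05, 0.32 and -0.17. Of 4 other small heat shock proteins, with a median log2 ratio of -0.12, Hspb2 was lower with 2 counts in shcircSmad5 cells and 21 in empty vector cells, while Cryab, alpha-B crystallin, had 5303 counts in shcircSmad5 cells and 4987 in empty vector cells.

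In the organelles, none of 12 mitochondrial import and protease genes passed, with a median log2 ratio of 0.0012, and Yme1l1, Phb2 and Phb had log2 ratios of -0.16, 0.08 and -0.10. Of 15 chaperone genes of the endoplasmic reticulum, Sdf2l1 was 2.42-fold higher (2.06 to 2.85), with 534 counts in shcircSmad5 cells and 216 in empty vector cells, and the list had a median log2 ratio of 0.15. Among 31 proteasome subunits none passed, 24 ratios were below 1 with a median log2 ratio of -0.11, and Psmd2, Psmd1 and Psmd3 had log2 ratios of -0.21, -0.05 and 0.09. Among 13 actin and tubulin genes, the clients of CCT, 2 were lower and the median log2 ratio was -0.13. Tubb3 was 4.17-fold lower, with 1695 counts in shcircSmad5 cells and 6929 in empty vector cells. Tuba1a was 2.45-fold lower, with 3084 counts in shcircSmad5 cells and 7394 in empty vector cells.

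The total gene count was 38382081 in the shcircSmad5 library and 39261010 in the empty vector library, and the 49 genes took 1.53% of it in shcircSmad5 cells and 1.36% in empty vector cells. Smad5, the host gene, had 3413 counts in shcircSmad5 cells and 3109 in empty vector cells, but these counts pool circular and linear RNA and are no check of the knockdown. Of 12 basal and bulge keratinocyte markers 9 were measured, with 6 ratios below 1, a median log2 ratio of -0.18 and a range of -1.71 to 0.45. Krt5 had 224675 counts in shcircSmad5 cells and 206538 in empty vector cells. Krt14 had 226645 in shcircSmad5 cells and 162982 in empty vector cells. Cd34 was at 0 in both, and Krt15 was 3.27-fold lower (2.53 to 4.26) in shcircSmad5 cells. The other measured markers were Sox9, Itga6, Trp63, Nfatc1, Itgb4 and Col17a1, with log2 ratios of -0.77, -0.53, -0.36, -0.18, -0.06 and 0.09. Fibroblast, immune, endothelial, melanocyte and muscle markers summed to 1.68, 5.94, 0.790, 0.816 and 0.663 CPM in shcircSmad5 cells, and in the same order to 4.19, 7.63, 3.10, 0.625 and 0.338 CPM in empty vector cells. Col1a1, Lyz2 and Cdh5 had 0 counts in both libraries. Pdgfra, Pecam1, Kdr and Csf1r passed as lower, at few counts. In that order they had 62, 27, 4 and 8 counts in shcircSmad5 cells and 161, 81, 33 and 36 in empty vector cells.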

How the data were processed

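Total RNA of both iHFSC2 derivatives was depleted of ribosomal RNA (Ribo-Zero) and 3 µg per sample went into strand-keeping libraries (NEBNext Ultra Directional), per the labels' protocols. Per the submitters' processing notes, the tools were HISAT2 and HTSeq 0.13.5; GRCm38 and GRCh38 are listed without their roles. Not given in the sources used here are the strand setting and the treatment of reads with several matches. The authors deposited a whole-number read count and an FPKM value per gene and library, per the file headers, with 0 value columns left unmatched. The deposited FPKM values imply a whole gene length, within 0.01 bases, for 100% of genes above 0 when divided by each column's count total, and that length is the GENCODE M21 exon length of the gene for 98.3% of them in the shcircSmad5 library and 98.2% in the empty vector library.

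Counts were scaled by TMM (edgeR 4.0.16, R 4.3.3), and CPM here is the count over the scaled total. Ratios are shcircSmad5 over empty vector, with 95% intervals from the exact Clopper-Pearson bounds on each gene's counts (scipy 1.17.1). No molecular identifiers are named in the labels, so intervals cover counting error only. Coordinates, overlaps and pseudogene copies come from GENCODE M21, which held 22319 of the gene IDs and lacked 64, with BLAST 2.17.0 for the copies. Cct6a, without an annotated coding transcript there, was not searched. Named are all genes of the set, with full values for those that passed and for the 4 with the most counts in each role, and from other lists those that passed or the 3 with the most counts. The genes, lists and rules were chosen with earlier results of these data known. The alternatives were other scalings, FPKM with a pseudocount of 0.1 or 1, other count minimums and fold limits, chromosome medians set to 0, and the set without Ppia and Hspa8.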

Additional observations from a re-analysis of the deposited data

How the results depend on the processing

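No paired analysis was possible because each group has 1 library. Ppia and Hspa8 were the 2 higher genes under all 7 other scalings and value types, both other count minimums and a 3-fold limit; without them the count was 0. Hspa4l was the 1 lower gene under the same settings except log2(FPKM + 1), where its log2 ratio was -0.98 and the count 0, and a 3-fold limit, where the count was also 0. A limit of 1.5-fold gave 4 higher genes, with Fkbp5 and Pfdn5 added, and 4 lower, with Fkbp1a, Hspb8 and Hsph1 added. The median log2 ratio of the set, -0.015, was -0.0031 with DESeq2 1.42.0 size factors, -0.093 with each chromosome set to its median and -0.024 without Ppia and Hspa8. It was 0.048 with total counts, 0.050 with upper quartile scaling, 0.062 with totals without the top 20 and mitochondrial genes, and 0.047 with either FPKM pseudocount. Over these scalings and FPKM values the median of all genes moved with it, between -0.0036 and 0.061, so the sign of the set's median follows the scaling. With each chromosome set to its median, the median of all genes was 0, against -0.093 for the set. Across scalings 5 genes near equal levels (St13, Stip1, Hspa9, Cct3 and Cct8) changed the sign of their log2 ratio, and 10 did with each chromosome set to its median. Of the 21 ratios that these 7 settings give for Ppia, Hspa8 and Hspa4l, 0 changed sign. With 1 library per group, the spread between cultures sets a limit that depth does not lift.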

Other observations

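The 21-base target of the hairpin was compared with annotated coding transcripts of 11588 measured genes and was found whole in 0 of them. Only linear transcripts were searched, so a target that spans the junction of a circular RNA could not be found. The longest run shared with a gene of the set was 10 bases, in Dnajb6, Hspa1a and Hspa1b. The 7-base site TTGCACT, which pairs with the seed of the hairpin's guide strand if that strand is the exact complement of the target, was present in transcripts of 10 of 48 genes of the set, or 20.8%, against 19.8% of measured genes. Hspa4l was among the 10, and Ppia and Hspa8 were not. These are counts of letters, and no effect of a hairpin on these genes was tested.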
